A study of Oryza sativa Indica Group with 36 samples.

Results

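OsPRR37 is a pseudo-response regulator of rice, one of a small family of proteins that work in the circadian clock. The comparison described here set leaves of a line overexpressing OsPRR37 (OE) against leaves of its parent, the indica cultivar Guangluai4 (GL), at clock hour 20:00. It was chosen by sampling hour and genotype and holds 6 of the 36 libraries of the series: 3 OE libraries and 3 GL libraries. The other 30 libraries are the same genotypes at 5 other hours, every 4 h from 0:00 to 16:00, with 3 libraries each, and served to estimate the spread and to compare 20:00 with the other 5 hours. All plants were seedlings of 45 days grown under natural long days, and the tissue was the uppermost leaf that had fully expanded. OE carries the OsPRR37 transgene in the Guangluai4 background and is 1 line, OsPRR37-OE5. Because only 1 line was sampled, the effect of OsPRR37 and that of this line cannot be told apart. The promoter that drives the transgene is not given in the sources used here.

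In plants, pseudo-response regulators are made in sequence through the day and repress transcription of clock genes that peak earlier. In rice, OsPRR37 also delays flowering in long days. Flowering in this species is set in the leaf, where Ehd1, a B-type response regulator, promotes the genes of florigen, the mobile flowering signal. Light-harvesting proteins bind chlorophyll around the photosystems, and their mRNAs follow the clock and the light and drop strongly between afternoon and night.

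The 6 libraries held 9377412 to 15599219 counts, against a median of 12531717 over the series, and 24328 to 25520 of the 35477 listed loci had a count in each. Replicate 1 stood apart in both genotypes: the chi-square of the counts per gene was 24.8 and 29.6 for OE replicate 1 against OE replicates 2 and 3, and 9.02 between OE replicates 2 and 3. In GL the same values were 28.7 and 30.4 for replicate 1, and 7.65 between replicates 2 and 3. Antenna mRNAs, which mark green leaf, were abundant, and the summed level of the shoot meristem markers, in reads scaled to a common library size (CPM), was 0, 0.865 and 0 CPM in OE and 0, 0 and 0 CPM in GL. The 2 root markers were not at 0: they summed to 11.6 to 14.1 CPM in OE and 13.2 to 23.5 CPM in GL, nearly all of it from OsLsi1, a silicon transporter gene. Levels below are in CPM after trimmed-mean scaling of the libraries, differences are log2 of OE over GL, and a gene was called when the Benjamini-Hochberg adjusted p of edgeR's quasi-likelihood test over all tested genes was under 0.05. The SE of a difference is its size divided by the square root of that test's F statistic, in the fit of 36 libraries. Because RNA was taken from whole leaf pieces, fewer cells of a type and less RNA per cell cannot be told apart. The series' design text describes the 3 libraries as biological repeats, and no source says which plants share a number.

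At 20:00 the number of genes called between OE and GL leaves depended on the fit. In OE, OsPRR37 itself stood far above its GL level and the flowering promoters Ehd1 and OsMADS14 were at or near 0 CPM. Of 21772 genes tested, 547 were called without a replicate term (2.51%), of which 240 were higher in OE (1.1%) and 307 were lower (1.41%). The difference was at least 2-fold for 325 of them, 163 higher and 162 lower, and at least 4-fold for 122, 77 higher and 45 lower. The median log2 difference was 1.35 among the higher genes and -1.03 among the lower genes, beside -0.02 over all tested genes. Of the 547 called genes, 542 had no overlap between the 3 OE and the 3 GL libraries, as had 21.2% of all tested genes. The count with the replicate number as a block was 1236 (5.68%), 622 higher and 614 lower, and it held all 547. In the 6 libraries alone, of 19749 genes tested, 360 were called (1.82%), and 2223 with the block (11.3%). Without the block, the count in the fit of all hours was 280 without OE replicate 2, 277 without OE replicate 3 and 286 without GL replicate 2.

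**Figure D1:**
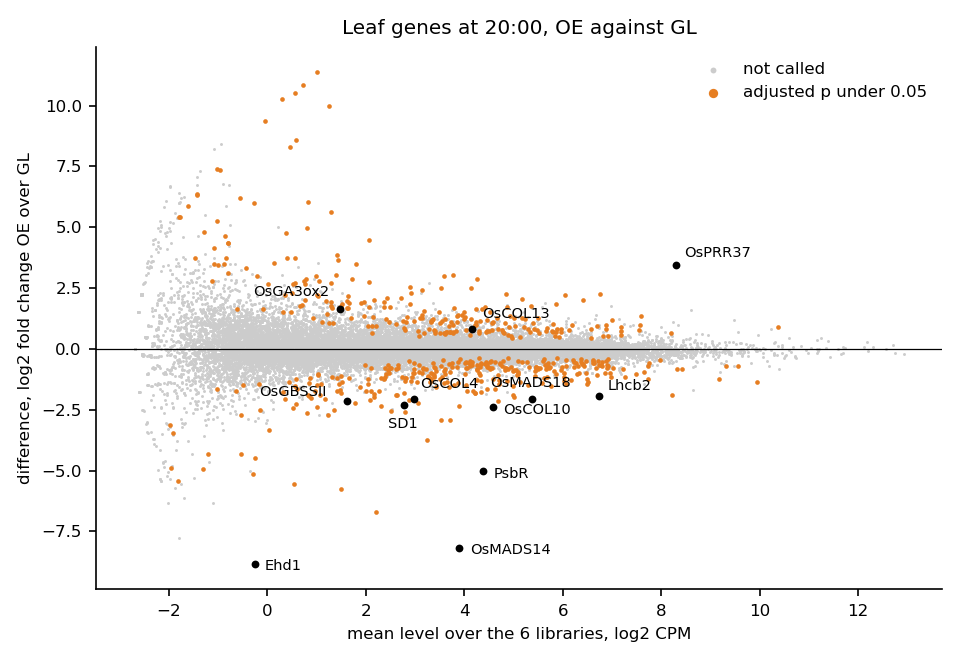
Difference between OE and GL at 20:00 (log2 of OE over GL, vertical axis) against mean level over the 6 libraries (log2 CPM, horizontal axis), 1 point per tested gene. Orange points are the 547 called genes, and black labelled points are called members of the gene lists, among which the fitted position of Ehd1, with 0 counts in OE, is no bound, with OsPRR37 at 3.43 and OsMADS14 at -8.18.

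OsPRR37 (OS07G0695100, chromosome 7, 29616564 to 29629218 in IRGSP-1.0) checks the labels. Its level was 952, 1047 and 1130 CPM in the 3 OE libraries, against 110, 105 and 75.7 CPM in the 3 GL libraries. The lowest OE library stood far above the highest GL library. The log2 difference was 3.43 ± 0.17 (SE, n = 3 each; edgeR adjusted p = 1.2e-13). Per length, the authors' FPKM averaged 315 in OE and 28 in GL. An exact two-sided permutation test of this 1 gene gave p = 0.1, the smallest that 3 against 3 libraries allow.

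The difference in OsPRR37 at 20:00 was smaller than the mean over the other hours, but its value was above those at 8:00, 12:00 and 16:00. By hour the log2 difference was 8.61 at 4:00, 2.19 at 8:00, 1.7 at 12:00, 2.71 at 16:00, 3.43 at 20:00 and 7.86 at 0:00. Its OE mean stayed between 842 CPM at 4:00 and 1550 CPM at 16:00 over the 6 hours, while its GL mean was 2.17 CPM at 4:00, 264 at 8:00, 456 at 12:00, 237 at 16:00, 96.8 at 20:00 and 3.98 at 0:00. The 20:00 difference was lower by a log2 of -1.18 than the mean of the other 5 hours (edgeR adjusted p = 0.0018) and by -4.43 than at 0:00 (edgeR adjusted p = 7.6e-13). It differed from that at 16:00 by 0.72 (edgeR adjusted p = 0.30), which missed the threshold.

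The other clock genes showed little difference between the genotypes at 20:00. Of 13 clock genes tested, 1 was called higher, OsPRR37 itself, and 1 was called lower, OsPRR95, another pseudo-response regulator. Among all tested genes 1.1% were higher and 1.41% lower. OsPRR95 stood at 3.94, 4.81 and 4.05 CPM in OE, against 5.07, 8.18 and 8.92 CPM in GL, and the groups did not overlap. Its log2 difference was -0.79 ± 0.22 (SE; edgeR adjusted p = 0.046), and leaving out any of the 3 OE libraries, GL replicate 2 or GL replicate 3 ended the call, with adjusted p between 0.082 and 0.22. OsPRR95 was called in 5 of 16 alternative fits. The gene was near the bottom of its course at this hour: its mean was 653 CPM in OE and 1240 CPM in GL at 16:00, where it was also lower in OE (edgeR adjusted p = 0.0032, with 7.91% of all genes called at that hour).

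The remaining pseudo-response regulators, OsPRR73, OsPRR1 and OsPRR59, did not pass the test at 20:00. OsPRR73, the closest relative of OsPRR37 in rice, had 234, 211 and 207 CPM in OE, against 289, 315 and 278 CPM in GL. Those groups did not overlap, but the difference of -0.44 ± 0.15 (SE) had an edgeR adjusted p of 0.15. The OsPRR73 adjusted p was 0.067 with the replicate number as a block over the 36 libraries, and OsPRR73 was called lower with the block in the 6 libraries alone (edgeR adjusted p = 0.024), with replicates 2 and 3 alone (edgeR adjusted p = 0.015) and in DESeq2 (adjusted p = 0.012). OsPRR1 averaged 49.2 ± 3.20 CPM in OE and 54.3 ± 3.88 CPM in GL (SD, n = 3 each), and OsPRR59 averaged 28.9 ± 2.16 CPM in OE and 30.8 ± 0.44 CPM in GL (SD, n = 3 each), both with overlapping libraries.

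OsGI, OsELF3-1, OsLUX and OsELF4a overlapped between genotypes. OsGI, the rice GIGANTEA, which links the clock to flowering, averaged 1181 CPM in OE and 1205 CPM in GL, a difference of -0.03 ± 0.19 (SE; edgeR adjusted p = 0.98). OsELF3-1, an evening-complex subunit, differed by -0.18 ± 0.13 (SE), OsLUX, its DNA-binding partner, by 0.23 ± 0.30 (SE), and OsELF4a by -0.30 ± 1.51 (SE). OsLHY, the morning-phased MYB factor, was low in both genotypes, at 4.26, 5.14 and 4.10 CPM in OE and 5.28, 6.70 and 2.92 CPM in GL. Among the light-sensing F-box genes, OsFKF1 had 13.3, 13.1 and 12.3 CPM in OE, against 9.39, 9.90 and 8.27 CPM in GL, without overlap and with an edgeR adjusted p of 0.50, while OsZTL1 and OsZTL2 differed by -0.11 and -0.09. The median over the 13 clock genes was -0.11, beside -0.02 over all tested genes.

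Several flowering promoters were far lower in OE. Of 9 floral inducers tested, 3 were lower in OE, namely Ehd1, OsMADS14 and OsMADS18, and 0 were higher. Of all tested genes 1.41% were lower and 1.1% higher. Ehd1 (OS10G0463400, chromosome 10, 17075899 to 17082420) had 0 counts in each of the 3 OE libraries, against 4.04, 4.98 and 4.14 CPM, 191 counts in all, in GL. With a floor of 3 counts over the OE group, Ehd1 was at least 81.4-fold lower in OE (edgeR adjusted p = 8.0e-08). Zero counts limit the level at this depth and do not show that no transcript was made.

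OsMADS14 (OS03G0752800, chromosome 3, 31031698 to 31054734) and OsMADS18 (OS07G0605200, chromosome 7, 24788444 to 24793609) are FRUITFULL-type MADS box genes that respond to florigen and promote the change to flowering. OsMADS14 had 0.376, 0.973 and 1.11 CPM in OE, against 208, 271 and 259 CPM in GL, and the difference was -8.18 ± 0.56 (SE; edgeR adjusted p = 9.6e-11). OsMADS18 had 21.9, 18.1 and 21.2 CPM in OE, against 85.2, 93.0 and 77.2 CPM in GL, and the difference was -2.06 ± 0.13 (SE; edgeR adjusted p = 1.3e-11). In both genes each OE library stood below each GL library by several-fold. OsMADS14 overlaps a locus on the other strand, and the library kit did not mark strand.

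OsMADS15, another gene of that type, had 0 counts in OE against 19 in GL, and it missed the threshold (edgeR adjusted p = 0.10). With a floor of 3 counts over the OE group it was 8.09-fold lower, a value that leaves out the error of the GL counts. The inducers that act upstream did not pass. OsMADS50, the rice SOC1-like gene, had 53.2, 51.7 and 49.4 CPM in OE, against 49.2, 35.8 and 33.1 CPM in GL, without overlap and with an edgeR adjusted p of 0.41. OsMADS51, DTH2 and Ehd2 differed by 0.14, -0.01 and 0.27, with overlapping libraries. OsDof12, a DOF factor, differed by 0.03 ± 0.16 (SE), and it was 1 of the 2 genes (0.00919%) whose 20:00 difference departed from that at 0:00, by -1.32 (edgeR adjusted p = 0.046). The other, OsPRR37, was far under the threshold (edgeR adjusted p = 7.6e-13). The count of 2 fell to 1 without OE replicate 1, OE replicate 3, GL replicate 2 or GL replicate 3, and without GL replicate 3 at 0:00. At 0:00 OsDof12 averaged 10.9 ± 1.53 CPM in OE and 4.27 ± 0.66 CPM in GL (SD, n = 3 each).

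**Figure D2:**
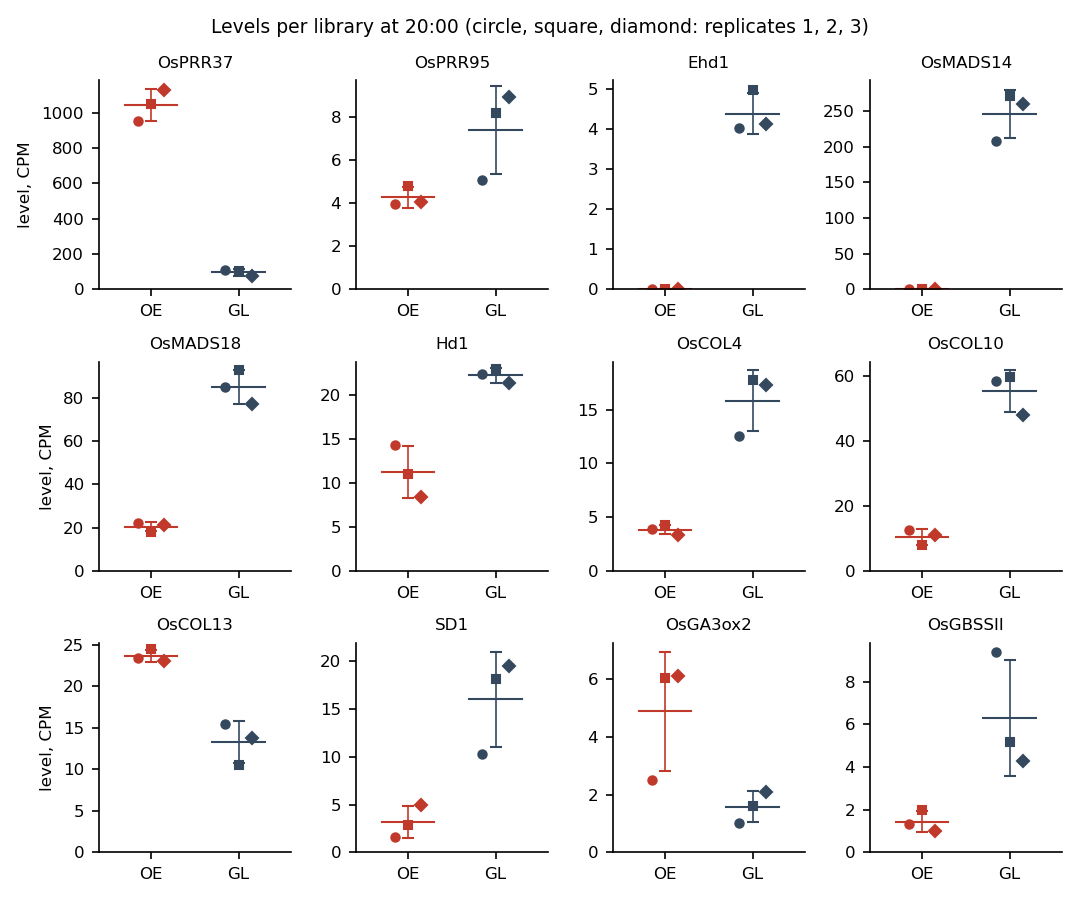
Level at 20:00 in each library (CPM, linear axis) for 12 called or flowering genes, with OE points left of GL points, a circle, square or diamond for replicate 1, 2 or 3, a line at each group mean and error bars of 1 SD. OsPRR37 is higher in all 3 OE libraries, and OsMADS14, at 0.376 to 1.11 CPM in OE and 208 to 271 CPM in GL, has the widest gap in the other direction.

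Genes that act as repressors of flowering, together with Hd1, which promotes flowering in short days and represses it in long days, moved in both directions. Of 9 tested, 2 were lower in OE, OsCOL4 and OsCOL10, and 1 was higher, OsCOL13, beside 1.41% lower and 1.1% higher among all tested genes. All 3 encode CONSTANS-like proteins that delay flowering in rice. OsCOL10 had 12.6, 7.84 and 10.9 CPM in OE, against 58.2, 59.6 and 48.0 CPM in GL, a difference of -2.40 ± 0.25 (SE; edgeR adjusted p = 2.4e-07). OsCOL4 had 3.88, 4.27 and 3.38 CPM in OE, against 12.5, 17.7 and 17.3 CPM in GL, a difference of -2.04 ± 0.26 (SE; edgeR adjusted p = 1.2e-05).

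The 2 genes kept their calls when any 1 of the 6 libraries was left out. Both were also lower in OE at 4:00, when 4.48% of all genes were called, at 16:00 and at 0:00, when 2.33% were called. At 8:00 and 12:00, when 3.31% and 2.02% of genes were called, neither passed. The 20:00 difference departed from the mean of the other 5 hours by -1.17 for OsCOL10 and by -1.27 for OsCOL4, with an edgeR adjusted p of 0.13 for each, which missed the threshold. With the replicate number as a block the departure of OsCOL4 passed (-1.24, edgeR adjusted p = 0.033).

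OsCOL13 had 23.4, 24.5 and 23 CPM in OE, against 15.5, 10.5 and 13.8 CPM in GL, without overlap. The difference was 0.83 ± 0.21 (SE; edgeR adjusted p = 0.024), and leaving out any OE library, GL replicate 2 or GL replicate 3 ended the call, with adjusted p between 0.052 and 0.18. OsCOL13, OsCOL10 and Hd1 each overlap a locus on the other strand.

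Hd1 (OS06G0275000, chromosome 6, 9336535 to 9338535) had 14.3, 11.1 and 8.39 CPM in OE, against 22.4, 23 and 21.3 CPM in GL. The OE libraries all stood below the GL libraries. The difference of -0.99 ± 0.29 (SE) missed the threshold (edgeR adjusted p = 0.066) and passed with the replicate number as a block (-1.02, edgeR adjusted p = 0.00076).

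Hd1 was 1 of the 8 genes (0.0367%) whose difference at 20:00 departed from the mean of the other 5 hours, by -1.70 (edgeR adjusted p = 0.044). That call was lost when any 1 of the 6 libraries was left out, with adjusted p between 0.065 and 0.42. Over the day the order of the genotype means turned, but without the block only differences with OE higher passed. Hd1 averaged 5.92 CPM in OE and 1.68 CPM in GL at 8:00, and 2.99 CPM in OE and 0.642 CPM in GL at 12:00, where it was higher in OE (edgeR adjusted p = 0.0032 and 0.0019). At 4:00, 16:00 and 0:00 it did not pass.

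DTH8 and Hd16, long-day repressors of flowering, differed by -0.07 and 0.04, and Se14, a histone demethylase gene, by 0.11. OsMADS56, a MADS box repressor, had 200, 162 and 169 CPM in OE, against 241, 199 and 233 CPM in GL, with an edgeR adjusted p of 0.24. OsCO3 differed by -0.46 with an edgeR adjusted p of 0.40. None of 13 photoreceptor and light-signalling genes was called, at a median of -0.10. The largest differences among them with groups that did not overlap were in OsPHYB, a red-light receptor gene, at 0.33, and OsPIL15, a phytochrome-interacting factor gene, at -0.47, with edgeR adjusted p of 0.73 and 0.20.

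**Figure D3:**
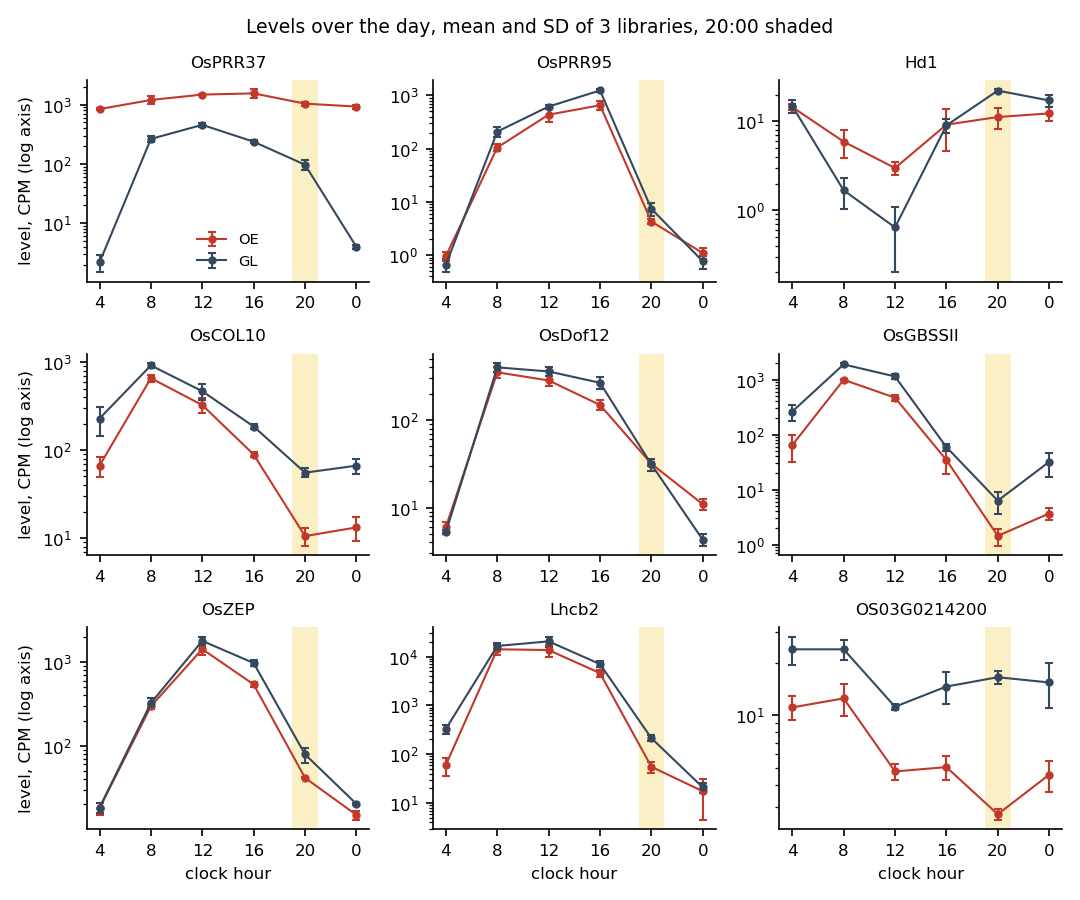
Mean level over the day (CPM on a log axis, ± SD, n = 3 per point) in OE and GL for 9 genes, against clock hour from 4:00 to 0:00, with 20:00 shaded. At 20:00 OsPRR37, at 1043 CPM in OE and 96.8 CPM in GL, is below its 16:00 level in both genotypes, and the Hd1 courses have crossed, with 11.2 CPM in OE and 22.2 CPM in GL.

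Antenna mRNAs formed the list with the most falls, 5 of them. Of the 14 light-harvesting genes, 5 were lower in OE and 0 were higher, beside 1.41% lower and 1.1% higher among all tested genes. The log2 difference was below 0 for 14 of 14, as it was at 4:00 and 12:00. The median was -0.97, beside -0.02 over all tested genes. Scaling by relative log expression gave the same 5 calls as a count and a median of -0.98. A fit with the replicate number as a block called 8 lower, with Lhca1, Lhcb1.2 and Lhcb6 added (edgeR adjusted p = 0.023, 0.045 and 0.0015). The count was 2 without OE replicate 2 and 2 without OE replicate 3, and 4 to 6 without any other of the 6 libraries.

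Lhca3 (OS02G0197600) and Lhca4 (OS08G0435900) belong to the antenna of photosystem I. Lhca3 had 505, 315 and 322 CPM in OE, against 1127, 814 and 756 CPM in GL, a difference of -1.24 ± 0.22 (SE; edgeR adjusted p = 0.0012). Lhca4 had 869, 513 and 527 CPM in OE, against 2008, 1551 and 1296 CPM in GL, a difference of -1.35 ± 0.28 (SE; edgeR adjusted p = 0.0055). Replicate 1 was the highest library of its genotype in both genes, and the groups did not overlap. Leaving out OE replicate 2 or OE replicate 3 ended the Lhca4 call, with adjusted p of 0.057 to 0.059. In the 6 libraries of 20:00 alone neither gene passed (edgeR adjusted p = 0.056 for Lhca3 and 0.054 for Lhca4).

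Lhcb2 (OS03G0592500) and Lhcb3 (OS07G0562700) belong to the trimeric antenna of photosystem II. Lhcb2 had 69.9, 44.0 and 51.4 CPM in OE, against 246, 188 and 206 CPM in GL, a difference of -1.95 ± 0.36 (SE; edgeR adjusted p = 0.0016). Lhcb3 had 40.4, 23.7 and 25 CPM in OE, against 99.1, 69.0 and 69.7 CPM in GL, a difference of -1.42 ± 0.31 (SE; edgeR adjusted p = 0.0091). Again each OE library stood below each GL library. The Lhcb3 call ended without OE replicate 2, OE replicate 3 or GL replicate 1, with adjusted p between 0.055 and 0.080.

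The remaining called antenna gene, named after its values were seen, was Lhcb1.3 at -1.88 (edgeR adjusted p = 0.031), with 122, 141 and 209 CPM in OE and 481, 674 and 588 CPM in GL. Lhca1, Lhca2 and Lhcb1.2 did not overlap either, but missed the threshold, at -0.83, -0.56 and -1.11. Lhcb6, a minor antenna protein gene, was at -1.42 with an edgeR adjusted p of 0.052 and overlapping groups. The smallest differences were in Lhca6 at -0.06 and Lhcb4 at -0.18. Of the 6 Lhca genes 2 were lower, at a median of -0.69, and of the 8 Lhcb genes 3 were lower, at a median of -1.26. Members of this family are similar in sequence and can share reads, and Lhca1, Lhca2, Lhca3, Lhca5, Lhcb2, Lhcb3 and Lhcb6 overlap other loci.

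The summed level of the 14 antenna genes was 6530, 4290 and 4270 CPM in OE and 11600, 7980 and 7340 CPM in GL, with replicate 1 the highest in each genotype. The secondary wall genes, which mark other cells of the leaf, summed to 21.2, 10.8 and 7.04 CPM in OE and 15.2, 1.91 and 3.00 CPM in GL, also highest in replicate 1. Their 3 genes were tested and 0 were called, and their part in the antenna result was not tested. The 3 cell division genes summed to 10.6 to 13.7 CPM in OE and 11.7 to 15.9 CPM in GL.

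The antenna calls lay at 20:00, 0:00 and 4:00. Of the 14, 9 were lower in OE at 4:00, 0 at 8:00, 12:00 and 16:00, 5 at 20:00 and 3 at 0:00. The share of all tested genes called, in either direction, was 4.48% at 4:00, 3.31% at 8:00 and 2.02% at 12:00. It was 7.91% at 16:00, 2.51% at 20:00 and 2.33% at 0:00. The median difference was -1.37 at 4:00, -0.13 at 8:00, -0.43 at 12:00, -0.45 at 16:00, -0.97 at 20:00 and -0.57 at 0:00. All 14 genes were below 0 at 4:00, 12:00 and 20:00, as were 13 at 16:00, 11 at 0:00 and 10 at 8:00. At 20:00 the median mean level of the 14 genes was 241 CPM in OE and 459 CPM in GL, against 3705 CPM in OE and 5100 CPM in GL at 16:00. None of the 14 was called in the test of the 20:00 difference against the mean of the other hours, so a difference particular to this hour was not shown.

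**Figure D4:**
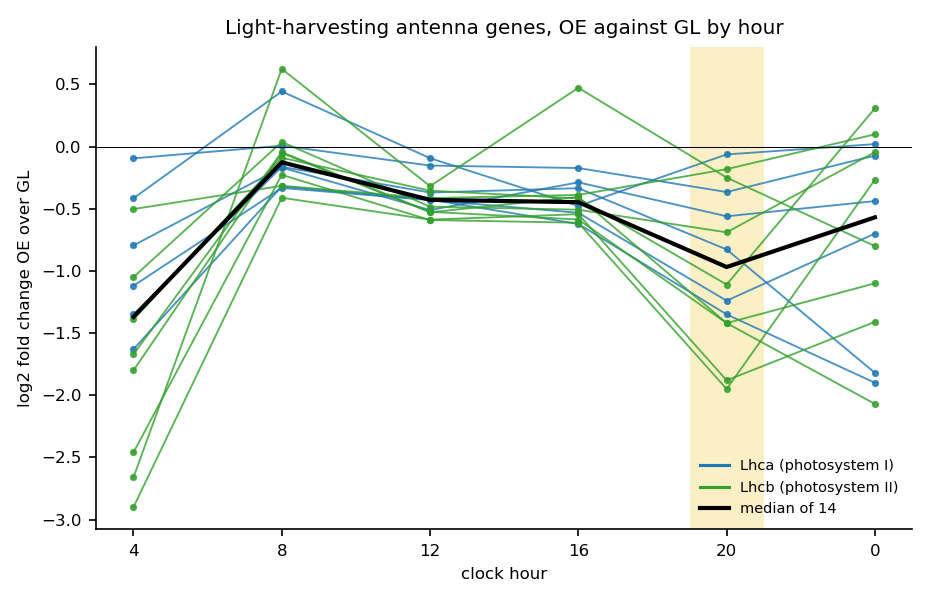
Log2 difference of OE over GL for each of the 14 antenna genes at each clock hour, with Lhca genes in blue, Lhcb genes in green and the median of the 14 as a black line. All 14 points lie below 0 at 20:00, where 5 are called, and also at 4:00 and 12:00.

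Photosystem subunits and electron carriers had 1 call among 19, lower in OE, beside 1.41% lower among all tested genes. PsbR (OS07G0147500), an extrinsic subunit of the water-splitting side of photosystem II, had 3.63, 3.35 and 4.53 CPM in OE, against 47.6, 188 and 143 CPM in GL. The GL libraries were themselves spread widely, with replicate 1 the lowest, and the groups did not overlap. The difference was -5.03 ± 0.92 (SE; edgeR adjusted p = 0.0013), and the gene was also lower in OE at 4:00 and at 16:00. The median over the 19 genes was -0.15, and 2 were lower with the replicate number as a block, PsaO being the other (edgeR adjusted p = 0.027). None of 9 Calvin cycle genes was called, at a median of -0.09.

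Chlorophyll synthesis had no call among 11 genes, at a median of -0.32, and 2 lower genes, OsPORB and OsPORA, with the replicate number as a block (edgeR adjusted p = 0.010 and 0.045). OsPORB, which makes the light-requiring step of chlorophyll synthesis, had 121, 95.1 and 98.3 CPM in OE, against 215, 182 and 174 CPM in GL, and OsPORA, its relative, had 10.9, 11.6 and 11.5 CPM in OE, against 40.0, 47.9 and 36.6 CPM in GL. Neither pair of groups overlapped, and the edgeR adjusted p was 0.060 for OsPORB and 0.10 for OsPORA. Of 5 chlorophyll breakdown genes, 1 was lower in OE, beside 1.41% of all tested genes. OsPAO, a pheophorbide oxygenase gene, was lower at -0.50 ± 0.13 (SE; edgeR adjusted p = 0.030). That call ended without OE replicate 1, OE replicate 2, GL replicate 2 or GL replicate 3 (adjusted p 0.11 to 0.16).

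Among 7 carotenoid genes, 1 was lower in OE, beside 1.41% of all tested genes. It was OsZEP, the zeaxanthin epoxidase gene that leads towards abscisic acid. It had 42.2, 41.4 and 41.1 CPM in OE, against 60.5, 91.1 and 85.4 CPM in GL, a difference of -0.93 ± 0.15 (SE; edgeR adjusted p = 0.00035). The OE libraries lay close together and all below the GL libraries. OsZEP was also lower at 16:00, at 539 CPM in OE and 969 CPM in GL, and did not pass at the other 4 hours. With the replicate number as a block 2 of the 7 genes were lower, OsPSY2, a phytoene synthase gene, being the other (edgeR adjusted p = 0.018).

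Among 10 starch and sucrose genes, 1 was lower in OE, beside 1.41% of all tested genes. OsGBSSII, the leaf form of granule-bound starch synthase, had 1.31, 2.00 and 1.01 CPM in OE, against 9.39, 5.17 and 4.30 CPM in GL. The difference was -2.12 ± 0.40 (SE; edgeR adjusted p = 0.0020), and the gene was also lower at 4:00, 12:00 and 0:00. In the 6 libraries of 20:00 alone it did not pass (edgeR adjusted p = 0.05). At 20:00 it was near the floor of its course, which averaged 992 CPM in OE and 1890 CPM in GL at 8:00. OsSSIIb, a soluble starch synthase gene, was at -0.89 with an edgeR adjusted p of 0.055, and the list's median was -0.48. The blocked fit called OsSSIIb lower as well (edgeR adjusted p = 4.5e-05).

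Gibberellin synthesis held calls in opposite directions among 10 genes, 1 lower and 1 higher, beside 1.41% lower and 1.1% higher among all tested genes. SD1, the GA 20-oxidase gene of the semi-dwarf locus, had 1.63, 2.92 and 4.97 CPM in OE, against 10.3, 18.2 and 19.5 CPM in GL, a difference of -2.32 ± 0.55 (SE; edgeR adjusted p = 0.017). OsGA3ox2, which makes the bioactive hormone in the next step, had 2.5, 6.05 and 6.13 CPM in OE, against 1.03, 1.6 and 2.11 CPM in GL, a difference of 1.65 ± 0.40 (SE; edgeR adjusted p = 0.019). Neither pair of groups overlapped, and both genes overlap a locus on the other strand. Of the other genes named, OsPRR73, OsELF3-1, Ehd2, OsDof12, Hd16, OsCO3 and OsZEP also overlap another locus.

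The SD1 call ended without OE replicate 1, OE replicate 2, GL replicate 2 or GL replicate 3 (adjusted p 0.060 to 0.095), and the OsGA3ox2 call without OE replicate 2, OE replicate 3, GL replicate 1 or GL replicate 2 (adjusted p 0.084 to 0.12). SD1 was also lower at 8:00 and 16:00, and OsGA3ox2 was also higher at 0:00. GID2, an F-box gene of gibberellin perception, was at 0.38 with an edgeR adjusted p of 0.060. In the blocked fit GID2 was higher as well (edgeR adjusted p = 0.028).

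Of 7 photorespiration and catalase genes, 1 was lower in OE, beside 1.41% of all tested genes. GDC-P, the P subunit of glycine decarboxylase, was lower at -1.01 ± 0.28 (SE; edgeR adjusted p = 0.049). It had 62.5, 42.4 and 35.6 CPM in OE, against 108, 91.6 and 83.0 CPM in GL, without overlap. The call ended without OE replicate 2, OE replicate 3 or any GL library, with adjusted p between 0.070 and 0.28. GDC-P was called in 6 of 16 alternative fits.

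Stress, hormone and nutrient lists had no calls. They were 16 jasmonate genes at a median of 0.15 (OsAOS1 and OsOPR7 higher with the replicate number as a block, edgeR adjusted p = 0.041 and 0.033), 8 nitrogen genes at 0.09, 6 cold, heat and drought genes at -0.21 and 3 defence genes at -0.33. OsAOS1, the first committed enzyme of jasmonate synthesis, had 25.2, 14.4 and 13.4 CPM in OE, against 11, 8.79 and 9.73 CPM in GL, with an edgeR adjusted p of 0.068. The reference genes OsActin1 and OsUBC differed by -0.08 and 0.25. Over the lists, 20 of 179 tested members were called (11.2%, beside 2.51% of all tested genes), 3 higher and 17 lower. The lists were chosen with earlier results of these data known and hold OsPRR37 itself, so these shares are no test. Of the 21 lists with a tested member, 11 had no call. The blocked fit called 32 members, and the count was 11 without OE replicate 2, 13 without OE replicate 3 and 13 without GL replicate 2.

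**Figure D5:**
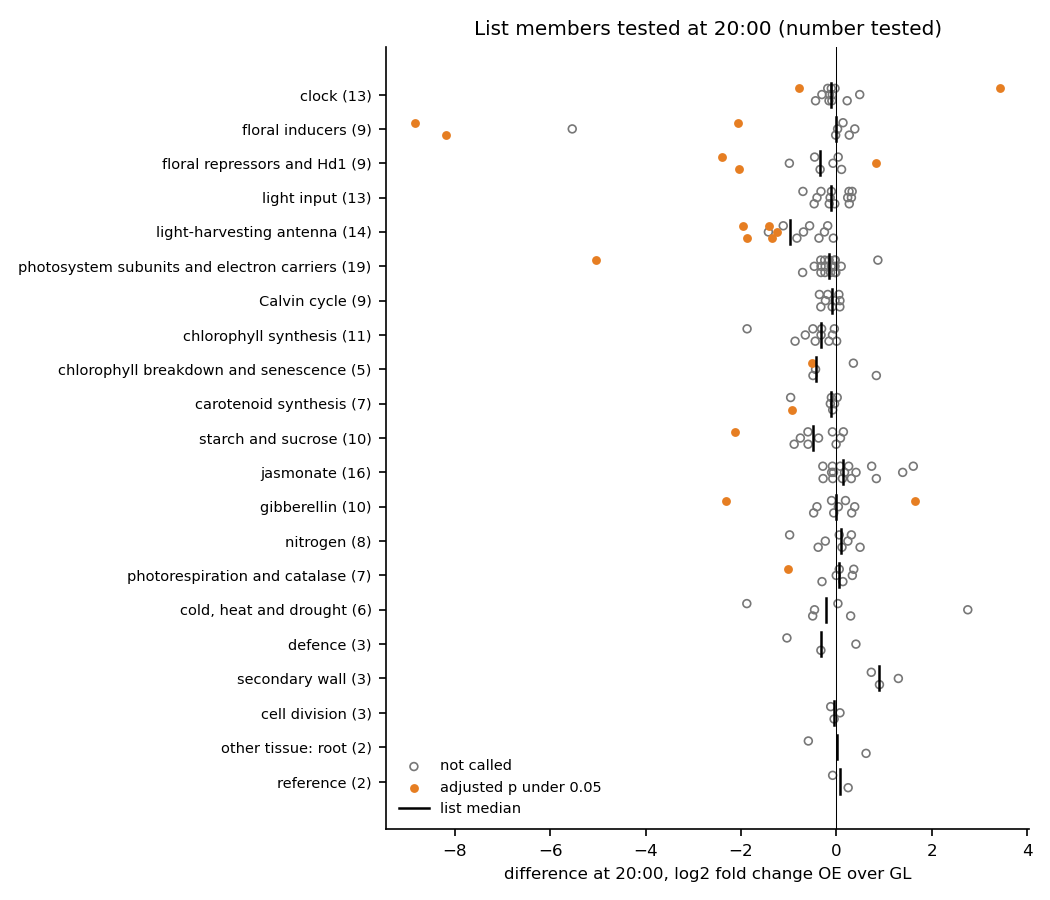
Log2 difference of OE over GL at 20:00 for each tested member of the gene lists, 1 row per list, with called members in orange, other members as open circles and a bar at the list median; the positions of Ehd1 and OsMADS15, with 0 counts in OE, are fitted values and no bounds. The antenna row lies wholly below 0 with a median of -0.97, while the clock row sits near 0 apart from OsPRR37 at 3.43.

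Outside the lists, the genes with the largest differences were identifiers that no table used here pairs with a name. Rice_newGene_4734 and Rice_newGene_4790, both loci that the authors' files add to the annotation on chromosome 8, were the largest rises among called genes whose mean level was at least 1 on the log2 CPM scale. Rice_newGene_4734 had 1437 counts over the 3 OE libraries and 0 in GL, at least 375-fold higher with a floor of 3 counts over the GL group. It lies within OS08G0193600 on the other strand, from which its reads cannot be told apart, and which was itself higher in OE, at 9.89, 7.89 and 10.1 CPM in OE and 4.18, 2.15 and 2.11 CPM in GL (edgeR adjusted p = 0.0072). Rice_newGene_4790 had 38.4, 30.1 and 30.1 CPM in OE, against 0, 0.0615 and 0 CPM in GL. Both were higher in OE at all 6 hours. Among the falls, OS09G0268600 had 0.501, 0.270 and 0.193 CPM in OE, against 16.6, 20.4 and 15.1 CPM in GL, a difference of -5.75 ± 0.52 (SE; edgeR adjusted p = 2.8e-08), and it was lower in OE at all 6 hours.

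Most calls at 20:00 were shared with at least 1 other hour. Of the 547, 71 were called at all 6 hours, 377 at 1 to 4 other hours and 99 at 20:00 alone (18.1%). The neighbouring hours shared 295 calls (16:00; 53.9% of the 20:00 calls and 17.1% of the 16:00 calls) and 265 calls (0:00; 48.4% of the 20:00 calls and 52.3% of the 0:00 calls), and all of these had the same sign at both hours. At 4:00 the shared calls were 273, of which 270 had the same sign. At 8:00 they were 171 and at 12:00 they were 144. The hours use different libraries of the same 2 genotypes.

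A call at 20:00 alone did not by itself show a different effect at 20:00. None of the 99 genes was called in the test of the 20:00 difference against the mean of the other 5 hours. In simulated data that test recovered 38% of 2-fold and 87% of 4-fold departures, so a missed call does not show an equal effect. The simulation changed only genes above a minimum mean count and held no replicate effect. Its shares may differ for the 99 genes. Of the 99, 53 (53.5%) had the same sign at all 5 other hours, as had 22.3% of all tested genes. In the real counts 8 genes were called by edgeR in that test, 2 higher (0.00919%) and 6 lower (0.0276%), and 793 had an unadjusted p under 0.05. With the replicate number as a block the count was 18, and it was 3 without OE replicate 1, OE replicate 3, GL replicate 2 or GL replicate 3. Against 16:00 alone 33 genes departed (0.152%), 8 higher and 25 lower, or 94 with the block, and the count was 9 without OE replicate 3, 11 without OE replicate 2 or GL replicate 2, 12 without GL replicate 3 and 17 without GL replicate 1. Against 0:00 alone 2 genes departed, OsPRR37 and OsDof12, and 1 without OE replicate 1, OE replicate 3, GL replicate 2 or GL replicate 3.

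The genes that departed at 20:00 had different courses. OS03G0197100 was higher in OE relative to its difference at the other hours, by 1.27 (edgeR adjusted p = 0.0018). At 20:00 it had 62.7, 46.3 and 61.5 CPM in OE, against 50.8, 32.8 and 49.5 CPM in GL, and these overlap. At 12:00 it averaged 143 CPM in OE and 391 CPM in GL. OS03G0197125, on the other strand within it, followed at 1.44 (edgeR adjusted p = 0.038), and its reads cannot be told apart from those of OS03G0197100. Its call ended without OE replicate 1, OE replicate 3, GL replicate 2 or GL replicate 3 (adjusted p 0.19 to 0.28).

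OS09G0489200 departed downwards, by -1.22 (edgeR adjusted p = 0.0018), with no difference passing at 20:00 itself, at 31.1, 35.9 and 31.1 CPM in OE and 31.5, 32.2 and 37.1 CPM in GL. At 8:00 it averaged 4.64 CPM in OE and 0.939 CPM in GL. OS03G0214200 had 2.94, 2.70 and 2.56 CPM in OE at 20:00, against 15.1, 17.8 and 16.7 CPM in GL, a difference of -2.59 ± 0.21 (SE; edgeR adjusted p = 2.6e-09). It was lower in OE at all 6 hours, and the 20:00 difference was the deepest of them, by -1.29 below the mean of the others (edgeR adjusted p = 0.020). That departure lost its call without any OE library, GL replicate 2 or GL replicate 3 (adjusted p 0.065 to 0.21).

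The evening course of the called genes in GL was also described. Using the GL libraries of 16:00 and 0:00 alone, 83 of the 307 lower genes (27%) were at least 2-fold higher at 16:00 than at 0:00, as were 25 of the 240 higher genes (10.4%) and 12.5% of all tested genes. The reverse course was found in 62 of the lower genes (20.2%), 47 of the higher genes (19.6%) and 10% of all tested genes. These shares are descriptions with no test.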

How the data were processed

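RNA from leaves was made into libraries with a kit that does not mark strand, per the labels' protocols. The submitters' processing notes name TopHat2, Cufflinks, Cuffdiff and build IRGSP-1.0, with no role. The deposited files give an estimated count per gene, as whole numbers, and the authors' FPKM. Counts of the 36 libraries, in 12 groups of 3, were fitted with edgeR 4.0.16 (R 4.3.3) quasi-likelihood after filterByExpr (minimum count 10, minimum total 15) and TMM scaling, and genes were called at a Benjamini-Hochberg adjusted p under 0.05. The code was tested on simulated data. Alternatives used RLE factors, no filter, DESeq2 1.42.0, limma 3.58.1 on log2(FPKM + 0.1) and log2(FPKM + 1), the replicate block, replicates 2 and 3, the 6 libraries alone, each library left out, and no GL replicate 3 at 0:00, whose genotype field names the OE line. Same-numbered OE and GL libraries of 20:00 deviated together (correlations across genes 0.508, 0.237 and 0.273, against -0.356 to 0.185 for other numbers). Number 1 stood out, as the crossed pairs of numbers 2 and 3 had 0.185 and 0.137. The main fit had no term for the number, and the replicate block was used in alternatives only. This pairing comes from the data, not from the labels. Members and lists were chosen with earlier results of these data known. List symbols were paired with identifiers from general knowledge: of 208 members 196 were in the files, 94 fitted the position of that name in a RefSeq table of another assembly, 97 had no name there, and 5 were contradicted and dropped. Named genes were OsPRR37, all tested clock and flowering members, up to 4 called members of each other list, and by identifier up to 2 rises and 2 falls at 20:00 (mean log2 CPM at least 1, no overlap) and in the test against other hours. Of these 1 gene is not reported here. Precision is limited by 3 libraries a group and by counting error at low counts.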

Additional observations from a re-analysis of the deposited data

Results flagged for a closer look

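The values below stand apart because the OE-to-GL difference at 20:00 departed from that at other hours by edgeR's quasi-likelihood test (adjusted p over all genes tested). Against the mean of the other 5 hours, the departure was -1.18 on the log2 scale for OsPRR37 (adjusted p = 0.0018), -1.70 for Hd1 (adjusted p = 0.044), 1.27 for OS03G0197100 (adjusted p = 0.0018), 1.44 for OS03G0197125 (adjusted p = 0.038), -1.22 for OS09G0489200 (adjusted p = 0.0018) and -1.29 for OS03G0214200 (adjusted p = 0.020). Against 16:00 alone it was 1.42 for OS03G0197100 (adjusted p = 0.010) and 1.68 for OS03G0197125 (adjusted p = 0.043). Against 0:00 alone it was -4.43 for OsPRR37 (adjusted p = 7.6e-13) and -1.32 for OsDof12 (adjusted p = 0.046). The limits given above for Hd1, OS03G0197125, OS03G0214200 and OsDof12 when a library is left out apply here as well. Over all 6 hours the Hd1 difference was -0.04 at 4:00, 1.81 at 8:00, 2.24 at 12:00, 0.03 at 16:00, -0.99 at 20:00 and -0.49 at 0:00. OsDof12 was at 0.19, -0.19, -0.34, -0.84, 0.03 and 1.35 at those hours.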

How the results depend on the processing

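Of 866 values of single genes recomputed under the alternatives, 452 belonged to called results and 0 of these changed sign, and 20 of the other 414 did. Where OE and GL libraries do not overlap, leaving 1 out could hardly turn the sign. A call was lost in 72 of the 866 values and gained in 16. Genes called at 20:00, 547 in edgeR, were 1236 with the replicate block (622 higher, 614 lower), 1152 with replicates 2 and 3 alone (607, 545), 360 with the 6 libraries alone (177 lower), 2223 with these and the block (1195, 1028) and 891 in DESeq2 (374, 517), and 277 to 457 with 1 library left out (105 to 210 higher, 143 to 262 lower). Against the mean of the other hours, 8 became 18, 56 and 56 with the block, with replicates 2 and 3 and in DESeq2, 3 to 7 with 1 library left out and 5 without GL replicate 3 at 0:00. Against 16:00, 33 became 94, 456 and 142 in those 3 fits, and 9 to 23. Against 0:00, 2 became 1 with replicates 2 and 3, 1 with no filter, 1 without GL replicate 3 at 0:00, 16 in DESeq2, and 1 to 2. List members called, 20, were 32 with the block, 33 with replicates 2 and 3, 58 with the 6 libraries and block, 34 in DESeq2, and 11 to 18. The causes were not tested. OsPRR37 kept a log2 difference of 3.28 to 3.58. The block over the 36 libraries changed no other call of a gene or departure named here than those given beside it, and with the 6 libraries alone it called, of the clock and flowering genes, OsPRR73, OsFKF1, OsMADS50 and OsMADS56 as well and ended the OsPRR95 call. Depth limits Ehd1 and OsMADS15, at 0 counts in OE.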
